A study of Mus musculus with 9 samples.

Results

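The cytotoxic effector genes are 10 of the 20926 genes in the blood expression table of this mouse study, chosen by symbol: Gzma, Gzmb, Gzmk, Gzmm, Prf1, Nkg7, Ifng, Fasl, Ccl5 and Serpinb9. RNA sequencing was performed on blood of male DBA/1 mice, with 3 libraries from different mice in each of 3 groups. The age label of every library is 7 weeks. That label matches the age at which the mice were divided into groups, before arthritis was induced. The arthritic mice were therefore older when blood was drawn, and the age at that time is not stated. Ctrl mice had no arthritis induction, CIA mice had collagen-induced arthritis, raised by injecting chick type II collagen in complete Freund's adjuvant followed by a booster in incomplete adjuvant, and CIA+THz mice had the same arthritis plus irradiation of the swollen ankles at 0.1 THz for 30 min a day over 14 days. The irradiated mice were held under isoflurane during each session, and the sources used here do not say whether the other groups were anaesthetised, so the 2 treatments cannot be told apart. The study used these groups to ask whether local irradiation changes blood gene expression in arthritic mice.

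Cytotoxic granules are the weapons of natural killer (NK) cells and CD8 T cells. Perforin opens a path into the target cell, granzymes are proteases that enter through it and start cell death, and Fas ligand on the surface of the killer cell starts death by another route. The same cells secrete interferon gamma and the chemokine Ccl5, and protect themselves from their own granzyme B with the inhibitor Serpinb9.

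The labels call the samples blood leukocytes, whereas the protocol describes RNA of total blood. Alas2, the first enzyme of haem synthesis in red cell precursors, took 11.4% to 16.7% of the summed FPKM (fragments per kilobase of transcript, scaled to library size) of a library. Ptprc, the pan-leukocyte marker CD45, was at 66.8 to 150 rescaled FPKM. It was lowest in CIA replicate 2 (66.8), CIA replicate 1 (70.8) and Ctrl replicate 3 (92.7), and at 136 or more in every other library. Each library was rescaled by 1 median-of-ratios factor, between 0.847 and 1.24, and CIA+THz libraries had the largest factors and the most genes above 0 (12449 to 12807, against 11801 to 12264 in the other libraries). Levels below are rescaled FPKM, which are per transcript length and can be compared between genes. The sequencing depth is not given by the FPKM values.

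The start regions of 3 members that were lower together in CIA, Gzma, Gzmb and Prf1, are printed here because 2 or more of them share short motifs there. Shown are the 250 bases before the RefSeq start on GRCm38.p6, read from 5′ to 3′ on the strand of the gene, with motif matches in capitals. The motifs searched on both strands were AGGTGT (the half-site of T-box factors such as T-bet and Eomes), TGTGGT (RUNX), TTCNNNGAA (GAS) and TGANTCA (AP-1), and no 2 matches overlapped in these 3 windows.
Gzma, chr13:113100982-113101231, - strand: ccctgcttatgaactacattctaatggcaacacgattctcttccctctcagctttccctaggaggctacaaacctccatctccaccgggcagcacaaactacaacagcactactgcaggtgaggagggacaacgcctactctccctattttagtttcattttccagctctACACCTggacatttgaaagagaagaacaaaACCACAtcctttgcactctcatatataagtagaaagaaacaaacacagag
Gzmb, chr14:56262335-56262584, - strand: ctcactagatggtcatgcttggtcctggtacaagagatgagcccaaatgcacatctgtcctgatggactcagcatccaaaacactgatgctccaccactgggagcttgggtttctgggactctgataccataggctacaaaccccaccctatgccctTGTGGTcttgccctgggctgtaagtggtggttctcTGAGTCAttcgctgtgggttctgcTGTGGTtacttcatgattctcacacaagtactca
Prf1, chr10:61297586-61297835, + strand: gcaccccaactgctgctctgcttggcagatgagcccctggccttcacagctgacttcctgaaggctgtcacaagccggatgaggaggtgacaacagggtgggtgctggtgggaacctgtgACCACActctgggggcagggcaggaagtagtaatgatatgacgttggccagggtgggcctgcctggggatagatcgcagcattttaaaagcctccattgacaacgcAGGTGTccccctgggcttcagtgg

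AGGTGT or its reverse complement lay 80 bases before the start of Gzma and 24 bases before that of Prf1. TGTGGT or its reverse complement was found in all 3 windows, at 50 bases in Gzma, 130 in Prf1, and at both 93 and 34 in Gzmb, whose TGANTCA match lay 58 bases before the start. Over the 10 RefSeq promoters found for 9 of the symbols (Gzmm had an extra start, and Ccl5 was not matched), AGGTGT was present in 4 (Gzma, Gzmk, Nkg7 and Prf1) and TGTGGT in 5 (Gzma, Gzmb, Gzmm, Nkg7 and Prf1). Of all 32851 promoters, 11.8% held AGGTGT and 14% held TGTGGT. TTCNNNGAA was in the promoters of Gzmm, Ifng and Nkg7, against 7.02% of all promoters, and TGANTCA was in that of Gzmb alone among the members, against 6.75%. Within these windows, motif content did not separate the members that were lower in CIA from those that were not, since Nkg7 held 3 of the 4 motifs and Fasl and Serpinb9 held none. Not every window is upstream of the GENCODE start, however. Those of Gzmk, Serpinb9 and the extra Gzmm start lie inside the GENCODE gene. The Nkg7 window runs into its gene, where its AGGTGT match lies.

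Expression of the members spanned a wide range. Averaged over the 9 libraries, the order was Gzma at 57.4 ± 21.9 (SD, n = 9), Ccl5 at 48.4 ± 11.6, Prf1 at 41.1 ± 13.6, Gzmb at 21.7 ± 5.80, Nkg7 at 16.1 ± 4.54, Serpinb9 at 10.6 ± 2.45, Fasl at 1.98 ± 0.696, Gzmm at 0.233 ± 0.0968 and Ifng at 0.177 rescaled FPKM. From Gzma down to Serpinb9, every neighbouring pair overlapped in its range over libraries. Serpinb9 and Fasl did not overlap, nor did Fasl and Gzmm. Gzmk was listed at 0 in all 9 libraries, and so were the 6 other mouse granzymes of the table, Gzmc, Gzmd, Gzme, Gzmf, Gzmg and Gzmn. Granzyme expression in this blood was therefore carried by Gzma and Gzmb, with Gzmm at the edge of detection.

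**Figure D1:**
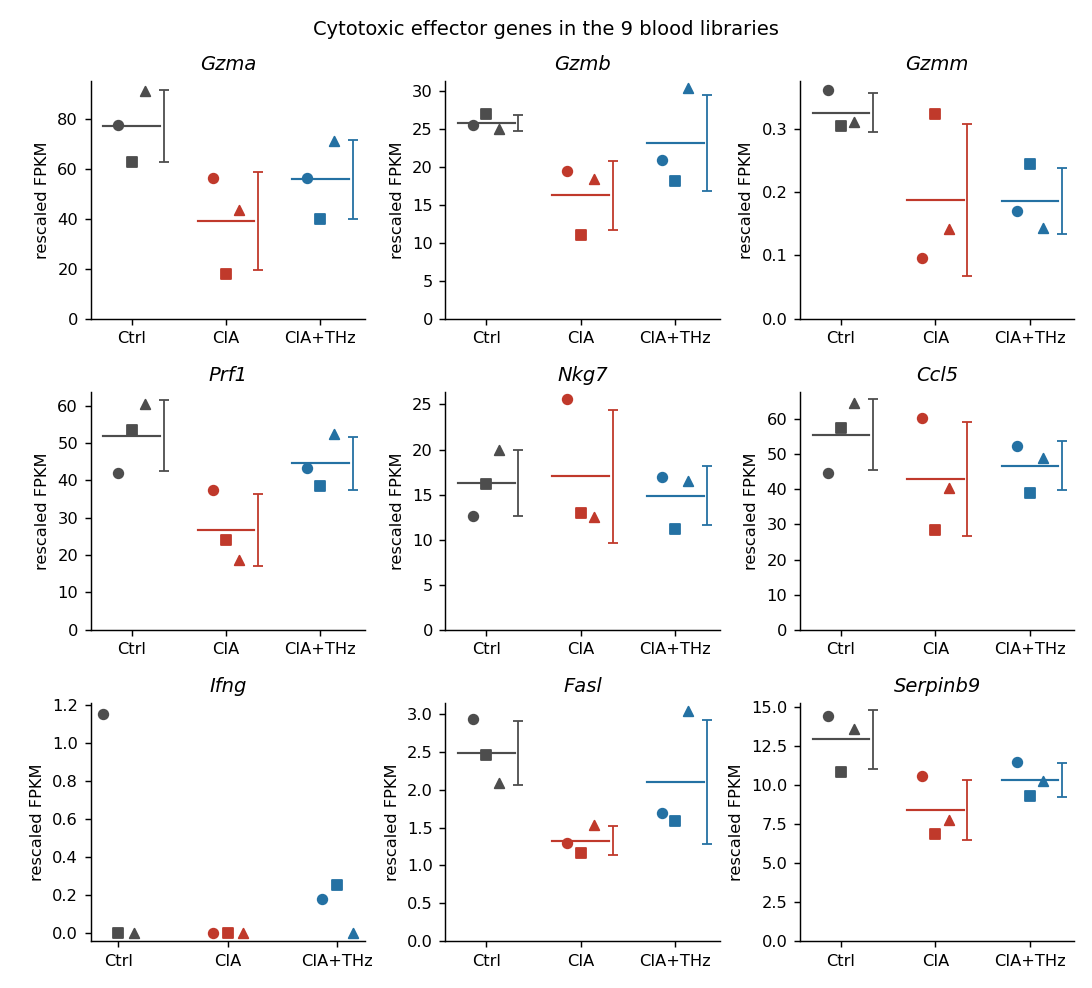
Rescaled FPKM (vertical axes, linear) of the 9 members above 0 in the 9 libraries, grouped as Ctrl, CIA and CIA+THz. Circles, squares and triangles are replicates 1, 2 and 3, horizontal lines are group means and bars are SD (n = 3; none for Ifng, with several libraries at 0). For Gzma, Gzmb, Prf1, Fasl and Serpinb9 all CIA points lie below all Ctrl points, whereas Nkg7 and Ccl5 overlap.

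In CIA against Ctrl, 4 of the 9 members tested were called, all lower: Gzma, Prf1, Fasl and Gzmb. A call here needs an unadjusted p under 0.05 in limma and an absolute log2 fold change above 0.67, the study's thresholds. By this rule 4.25% of the 12366 genes tested were called lower and 9.04% in either direction. Serpinb9 was lower without reaching the fold threshold, Ccl5 and Gzmm were lower in the mean with overlapping groups, and Nkg7 had nearly the same mean in both groups. None of the 9 members had a Benjamini-Hochberg adjusted p under 0.05 (limma, smallest 0.147), a threshold that 19 genes passed (0.154%). Of the 9 members, 8 had a lower mean log2 level in CIA, as 50.5% of all genes did. Ifng was among the 8, and being at 0 in all CIA libraries it could not have been higher there. Groups did not overlap for 5 members (11.8% of all genes were lower without overlap). The median log2 fold change of the 9 members was -0.70, or -0.67 without Ifng, against -0.01 for all genes tested.

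Gzma, located at chr13:113093825-113100981 on the minus strand (GRCm38, GENCODE), encodes granzyme A, a tryptase of the granule. The 3 Ctrl libraries stood at 77.7, 62.6 and 91.2, the CIA libraries at 56.3, 17.8 and 43.5, and the CIA+THz libraries at 56.2, 39.9 and 71.2. The highest CIA library was below the lowest Ctrl library, and CIA+THz overlapped both other groups. The log2 fold change was -1.11 ± 0.40 (SE; adjusted p = 0.231 by limma) in CIA against Ctrl, a ratio of means of 0.508. In CIA+THz against CIA it was 0.62 ± 0.43 (limma adjusted p = 0.573), and Gzma was not called. Without CIA replicate 2 these values were -0.62 and 0.13, and without CIA replicate 1 they were -1.45 and 0.96.

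Gzmb (chr14:56258838-56262260, minus strand) encodes granzyme B, which cleaves caspases. Ctrl libraries were tightly grouped at 25.5, 26.9 and 24.9, CIA libraries were at 19.4, 11.1 and 18.4, and CIA+THz libraries at 20.9, 18.2 and 30.3. All CIA libraries were below all Ctrl libraries, and CIA+THz reached from within the CIA range to above every Ctrl library. The log2 fold change was -0.70 ± 0.22 in CIA against Ctrl (limma adjusted p = 0.191) and 0.51 ± 0.27 in CIA+THz against CIA (limma adjusted p = 0.465).

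Gzmm (chr10:79689020-79695261, plus strand), which encodes granzyme M, stayed under 0.4 rescaled FPKM. Values were 0.361, 0.305 and 0.311 for Ctrl, 0.0957, 0.323 and 0.142 for CIA, and 0.170, 0.244 and 0.143 for CIA+THz. All CIA+THz libraries were below all Ctrl libraries, while CIA overlapped both. At such levels the added 0.1 compresses fold changes, and no comparison was called (limma adjusted p = 0.524 to 0.977).

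Prf1 (chr10:61297833-61304680, plus strand), which encodes perforin, gave the smallest p of the members in both comparisons that involve CIA. Ctrl libraries were at 41.9, 53.6 and 60.5, CIA libraries at 37.5, 23.9 and 18.7, and CIA+THz libraries at 43.2, 38.4 and 52.3. The CIA libraries were below all 6 others. The log2 fold change was -1.0 ± 0.27 in CIA against Ctrl (limma adjusted p = 0.147) and 0.79 ± 0.26 in CIA+THz against CIA (limma adjusted p = 0.293). CIA+THz and Ctrl overlapped, with a difference of -0.21 ± 0.17 (limma adjusted p = 0.550).

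Nkg7 (chr7:43437073-43438249, plus strand) encodes a granule membrane protein required for granule release. The levels were 12.6, 16.2 and 20.0 for Ctrl, 25.6, 13.0 and 12.6 for CIA, and 17.0, 11.1 and 16.5 for CIA+THz. CIA held both the highest library of all 9 and values near the lowest. The log2 fold change was 0.01 ± 0.31 in CIA against Ctrl (limma adjusted p = 0.996) and -0.14 ± 0.31 in CIA+THz against CIA (limma adjusted p = 0.883).

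Ifng (chr10:118441046-118445892, plus strand), the gene of interferon gamma, was listed at 0 in 6 of 9 libraries. The exceptions were 1 Ctrl library at 1.15 and 2 CIA+THz libraries at 0.182 and 0.255, and all 3 CIA libraries were at 0. Its exons overlap those of the GENCODE gene Gm49751, with which 8.03% of its 100-base stretches are shared, whereas no other member shared any. With so many libraries at 0, its fitted fold changes are set by the added 0.1 and are not read as sizes of change.

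Fasl (chr1:161780689-161788495, minus strand), the gene of Fas ligand, stood at 2.93, 2.46 and 2.09 for Ctrl, 1.29, 1.16 and 1.53 for CIA, and 1.69, 1.58 and 3.05 for CIA+THz. The CIA libraries were below all 6 others, as for Prf1. Its log2 fold change was -0.85 ± 0.30 in CIA against Ctrl (limma adjusted p = 0.223). In CIA+THz against CIA it was 0.57 ± 0.33 (limma adjusted p = 0.493), with 1 CIA+THz library far above the other 2.

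Ccl5 (chr11:83525778-83530518, minus strand), a chemokine for T cells, monocytes and eosinophils, stood at 44.5, 57.4 and 64.6 for Ctrl, 60.4, 28.3 and 40.4 for CIA, and 52.5, 38.9 and 48.8 for CIA+THz. Groups overlapped in every comparison. The log2 fold change was -0.42 ± 0.28 in CIA against Ctrl (limma adjusted p = 0.476) and 0.18 ± 0.27 in CIA+THz against CIA (limma adjusted p = 0.812).

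Serpinb9 (chr13:33003250-33017957, plus strand), the granzyme B inhibitor, stood at 14.4, 10.8 and 13.6 for Ctrl, 10.6, 6.85 and 7.76 for CIA, and 11.5, 9.32 and 10.3 for CIA+THz. CIA lay below Ctrl in every library, by a narrow gap. The log2 fold change was -0.63 ± 0.21 (limma adjusted p = 0.206), with an unadjusted p under 0.05 but just under the fold threshold. The ratio of the inhibitor to its target, Serpinb9 to Gzmb, was 0.504 ± 0.0896 for Ctrl, 0.529 ± 0.0999 for CIA and 0.467 ± 0.113 for CIA+THz (SD, n = 3), with overlapping groups.

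**Figure D2:**
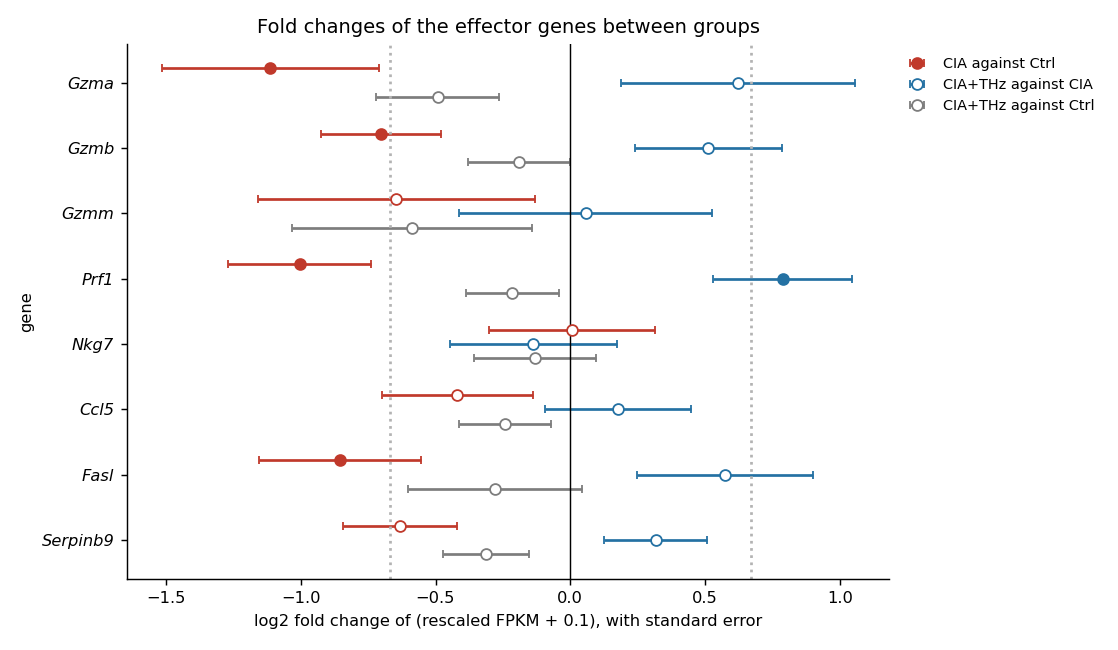
Log2 fold change of rescaled FPKM + 0.1 (horizontal axis, bars are standard errors from limma) for 8 members in 3 comparisons, without Ifng. Filled points met the criterion, dotted lines mark the fold threshold of 0.67, and CIA against Ctrl and CIA+THz against CIA share the CIA libraries. Filled points are Gzma, Gzmb, Prf1 and Fasl in CIA against Ctrl and Prf1 in CIA+THz against CIA.

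In CIA+THz against CIA, 1 of 9 members met the criterion, Prf1, called higher at a limma adjusted p of 0.293. Of all genes, 2.94% were called higher and 4.54% in either direction. The Prf1 call was kept in 2 of 6 fits that left out a library. A single call among 9 members is not read as a change of the set. Of the 9 members, 8 had a higher mean log2 level in CIA+THz (52.9% of all genes) and Nkg7 a lower one. Ifng, at 0 in all CIA libraries, was among the 8 and could not have been lower in CIA+THz. Groups did not overlap for Prf1 and Fasl (9.38% of all genes were higher without overlap). The median log2 fold change was 0.51, or 0.42 without Ifng, against 0.03 for all genes. No gene of the table had an adjusted p under 0.05 in this comparison (limma, smallest 0.164), with 1634 genes (13.2%) at an unadjusted p under 0.05. With FPKM as deposited, where the median of all genes moved to 0.29, Fasl, Gzmb and Prf1 were called and the Nkg7 change turned to 0.14. That setting called 1192 of all 12366 genes.

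In CIA+THz against Ctrl, 0 of 9 members were called by limma, where 7.88% of all genes were called, and 0 had an unadjusted p under 0.05 (18.1% of all genes). All 9 members had a lower mean log2 level in CIA+THz, as 46.1% of all genes did, with a median of -0.24 against 0.04 for all genes. For Ifng this rested on Ctrl replicate 1 (1.15), the other Ctrl libraries being at 0. With FPKM as deposited, however, 6 of the 9 members turned to between 0.01 and 0.18 while the median of all genes was 0.33. Gzmm did not overlap between the groups (12% of all genes were lower without overlap).

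Across the 3 groups, a moderated F-test in limma gave an unadjusted p under 0.05 for 4 of 9 members, where 21.3% of all genes passed. These were Prf1 (limma adjusted p = 0.0788), Serpinb9 (adjusted p = 0.175), Gzmb (adjusted p = 0.191) and Gzma (adjusted p = 0.198). Nkg7 had an adjusted p of 0.930 and Fasl one of 0.261. No member had an adjusted p under 0.05, which 2.53% of all genes had.

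Single libraries weighed on these calls. CIA replicate 2 was the lowest of 9 libraries for 5 of the 7 members with a mean of at least 1 rescaled FPKM (Gzma, Gzmb, Fasl, Ccl5 and Serpinb9), and CIA replicate 3 was among the lowest 3 for all 7. Ctrl replicate 3 was the highest for Gzma, Prf1 and Ccl5, CIA replicate 1 for Nkg7, and CIA+THz replicate 3 for Gzmb and Fasl. Without CIA replicate 2, Prf1 alone was called in CIA against Ctrl, without Ctrl replicate 1 the calls were Gzmb and Prf1, and without CIA replicate 1 they were 6, with Ccl5 and Serpinb9 added. In that order, these fits called 966, 1005 and 1071 of all 12366 genes. Gzmb in CIA against Ctrl had a log2 fold change of -0.45 without CIA replicate 2. Its value for CIA+THz against CIA was 0.26 without CIA replicate 2 and 0.30 without CIA+THz replicate 3, and that of Fasl was 0.29 without CIA+THz replicate 3. Prf1 was called lower in CIA in all 6 fits that left out a library, with log2 fold changes from -1.28 to -0.78. Its higher level in CIA+THz against CIA was called in 2 of 6 such fits, with log2 fold changes from 0.56 to 1.06. That call was lost without CIA replicate 2, CIA replicate 3, CIA+THz replicate 1 or CIA+THz replicate 3.

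Ratios between members within a library do not depend on the rescaling, and the ratio of Nkg7 to perforin set CIA apart from the other groups. The ratio of Nkg7 to Prf1 was 0.302, 0.303 and 0.330 for Ctrl, 0.682, 0.542 and 0.672 for CIA, and 0.394, 0.290 and 0.315 for CIA+THz. All CIA libraries were above all 6 others, and Ctrl and CIA+THz overlapped. For Ccl5 to Prf1 the ratio ran from 1.06 to 1.07 for Ctrl, from 1.18 to 2.16 for CIA and from 0.933 to 1.21 for CIA+THz, so that CIA was above Ctrl in every library but overlapped CIA+THz. The ratios of Gzma to Prf1 (1.51 ± 0.343, 1.53 ± 0.793 and 1.23 ± 0.171 in Ctrl, CIA and CIA+THz; SD, n = 3) and of Gzmb to Prf1 (0.508 ± 0.0987, 0.655 ± 0.287 and 0.512 ± 0.0584) overlapped between groups. These ratios were looked at after the levels were known, so they are a description with no test.

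**Figure D3:**
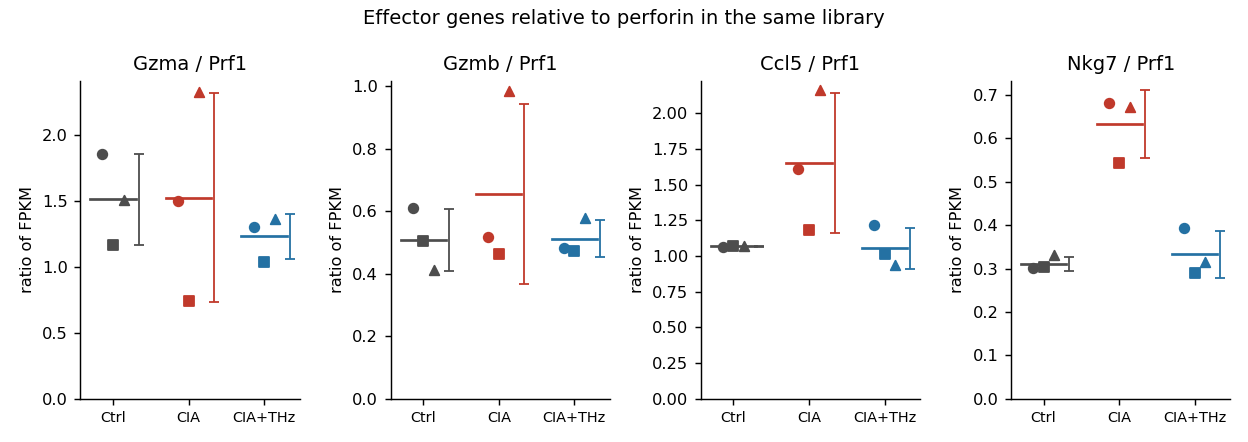
Ratio of FPKM of Gzma, Gzmb, Ccl5 and Nkg7 to that of Prf1 in the same library (vertical axes, linear from 0), by group. Markers are replicates 1 (circle), 2 (square) and 3 (triangle), lines are means and bars are SD (n = 3). Nkg7 to Prf1 lies between 0.542 and 0.682 in CIA and between 0.290 and 0.394 in the other libraries.

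FPKM are relative to all the RNA of a library, so a level can fall without a loss of cytotoxic cells. In bulk blood, a smaller share of cytotoxic cells and less RNA per cell cannot be told apart. The members were therefore set beside markers of the cells that express them. The 8 NK cell markers, surface receptors for the most part, summed to 38.9 to 49.3 rescaled FPKM for Ctrl, 19.1 to 30.3 for CIA and 30.1 to 36.1 for CIA+THz. Klra8 was at 0 in all libraries and Klrc2 in all CIA libraries. Of the 7 tested, all 7 had lower means in CIA against Ctrl, with 3 called. All 7 had higher means in CIA+THz against CIA, with 1 called. Klrc2 was among the 7 and, at 0 in CIA, could not have gone the other way in either comparison. The called markers were Klrd1, the CD94 chain of NK receptors (-0.97 ± 0.17 on the log2 scale; limma adjusted p = 0.0680), the activating receptor Ncr1 (-0.99 ± 0.34) and the lectin-like receptor Klre1 (-2.90 ± 0.65, then 1.61 ± 0.65 in CIA+THz against CIA and -1.28 ± 0.30 in CIA+THz against Ctrl). The part of NK cell numbers in the members' levels was not tested.

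Relative to the mean log2 level of the 7 NK cell markers in the same library, Prf1 lay 3.81 ± 0.31 above the marker mean for Ctrl, 3.99 ± 0.36 for CIA and 4.05 ± 0.11 for CIA+THz (log2, SD, n = 3), with overlapping groups. Gzma (4.38 ± 0.04, 4.45 ± 0.50 and 4.35 ± 0.16), Gzmb (2.82 ± 0.34, 3.30 ± 0.24 and 3.09 ± 0.20) and Fasl (-0.52 ± 0.45, -0.19 ± 0.42 and -0.34 ± 0.34) also overlapped in all comparisons, as did Gzmm and Ifng. The mean of Nkg7 relative to these markers was higher in CIA by 1.19 than in Ctrl, that of Ccl5 by 0.77 and that of Serpinb9 by 0.55, and for each of them every CIA library was above all 6 others.

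These relative values depend on the markers chosen. Klre1, at about 0.2 in 2 CIA libraries (0.199 and 0.246), and Klrc2, at 0 in all CIA libraries, weigh heavily in the marker mean. Over the other 5 markers, an alternative chosen after the data were seen, the excess in CIA over Ctrl was 0.73 for Nkg7 and 0.30 for Ccl5, each still without overlap, but 0.0893 for Serpinb9, whose groups then overlapped. Over the 5 markers all 3 overlapped between CIA+THz and CIA. Relative to the 2 CD8 T cell markers, Nkg7 (0.41), Ccl5 (-0.01) and Serpinb9 (-0.23) overlapped between CIA and Ctrl, and Fasl (-0.45) was lower in all CIA libraries. Relative to the 11 T cell markers, Prf1 (-0.76), Fasl (-0.61) and Gzmb (-0.46) were lower in all CIA libraries than in Ctrl, while Nkg7 (0.25), Ccl5 (-0.18) and Serpinb9 (-0.39) overlapped. No test was made on any of these values.

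**Figure D4:**
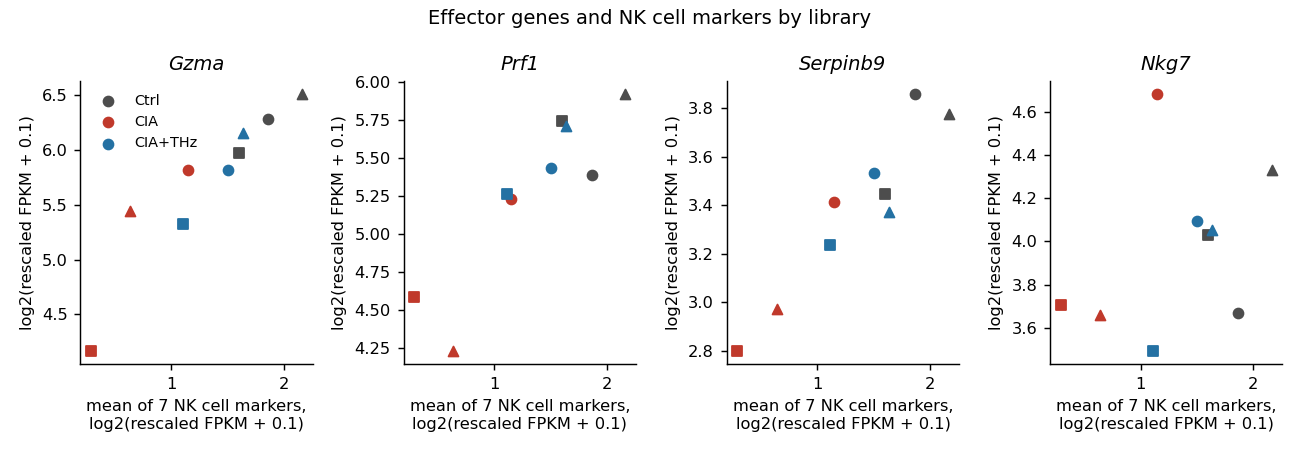
Log2(rescaled FPKM + 0.1) of Gzma, Prf1, Serpinb9 and Nkg7 (vertical axes) against the mean of the same over 7 NK cell markers (horizontal axis) in 9 libraries, with circles, squares and triangles for replicates 1, 2 and 3. The CIA libraries are at 0.29 to 1.15 on the marker axis and the Ctrl libraries at 1.60 to 2.17, and the highest Nkg7 point is a CIA library.

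Markers of other blood cells also differed between groups. The CD8 T cell markers Cd8a and Cd8b1 summed to 44.7 to 53.8 for Ctrl, 30.7 to 46.8 for CIA and 46.1 to 64.0 for CIA+THz, and neither was called. Of 11 T cell markers, 10 had lower means in CIA against Ctrl with 0 called by limma. All 11 had higher means in CIA+THz against CIA, with Cd5 called (0.79 ± 0.21). Their sum was 542 to 622 for Ctrl, 497 to 511 for CIA and 595 to 769 for CIA+THz. Monocyte markers summed to 2833 to 3192 for Ctrl, 4941 to 5479 for CIA and 3214 to 3480 for CIA+THz, with Csf1r, Ccr2, Lyz2 and Fcgr1 called higher in CIA against Ctrl and Cd14 lower in CIA+THz against CIA (-0.81 ± 0.13). The 5 basophil and mast cell markers summed to 35.6 to 54.1, 26.3 to 43.3 and 41.9 to 51.4 in Ctrl, CIA and CIA+THz. Their calls ran in both directions in CIA against Ctrl, with Mcpt8 higher (0.83 ± 0.34) and Cpa3 lower (-0.84 ± 0.21), and Cpa3 (0.92 ± 0.18) and Fcer1a (0.77 ± 0.23) were called higher in CIA+THz against CIA. Neutrophil markers summed to 12240 to 20614, 14152 to 18293 and 10446 to 11885 in the same order, and Retnlg was called lower in CIA+THz against CIA (-0.83 ± 0.13). The 5 red cell precursor markers summed to 69085 to 103615, 87133 to 97838 and 47439 to 65436, nearly all of it Alas2, which was not called. Their median log2 fold change was -0.44 in CIA against Ctrl, with 4 of 5 lower, and -0.07 in CIA+THz against CIA, with 0 called by limma in both. The 5 platelet markers were all lower in CIA+THz against CIA, with a median log2 fold change of -0.50 and 0 called by limma. The 5 B cell markers had no call in any comparison. Of the 4 plasmacytoid dendritic cell markers, Ccr9 was called lower in CIA (-1.33 ± 0.35) and in CIA+THz (-0.87 ± 0.30) against Ctrl, and 0 were called by limma in CIA+THz against CIA. The 3 gamma-delta T cell markers were not matched by symbol. The part of these cells in the members' levels was not tested.

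Genes that act with the members were read from lists of their partners, and none in these lists had an adjusted p under 0.05 by limma. The 12 genes of granule assembly and release, among them Srgn, the proteoglycan that packs granzymes, and Ctsc, the protease that activates them, had 0 calls by limma in all 3 comparisons. Their median log2 fold change was 0.16 in CIA against Ctrl (-0.01 for all genes) and -0.21 in CIA+THz against CIA (0.03 for all genes). In the latter comparison 11 of 12 were lower, where 52.9% of all genes were higher. Ctsc had an unadjusted p of 0.0113 by limma in CIA against Ctrl at 0.60 ± 0.18, under the fold threshold and opposite in sign to Gzma and Gzmb. Bulk blood does not show which cells the transcripts of this list came from. The opposite sign can therefore not be placed within cytotoxic cells.

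Among 10 death ligands, receptors and caspases, 3 ligands were called in CIA against Ctrl. Tnfsf10, the ligand TRAIL, was lower (-0.73 ± 0.30), as was Tnf (-0.78 ± 0.32), while Lta, lymphotoxin alpha, was higher (0.97 ± 0.39). Tnf was also called lower in CIA+THz against Ctrl (-1.35 ± 0.29), and no gene of the list was called in CIA+THz against CIA. The Tnf level was 2.09 ± 0.278, 1.18 ± 0.237 and 0.760 ± 0.0750 rescaled FPKM in Ctrl, CIA and CIA+THz (SD, n = 3) and was lowest in CIA+THz, whereas the mean level of Prf1 was lowest in CIA.

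The 3 other effector chemokines, Ccl3, Ccl4 and Xcl1, were all lower in the mean in CIA against Ctrl and 0 were called by limma, the median being -0.44.

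Of 9 transcription factors of the effector programme, Nfil3, needed for NK cell development, was called higher in CIA against Ctrl (0.78 ± 0.24). The T-box factors Tbx21 and Eomes, whose half-site was searched above, stood at -0.43 ± 0.29 and -0.68 ± 0.37 on the log2 scale in CIA against Ctrl and were not called in any comparison. Among 8 cytokine receptor genes, Il12rb2, a chain of the interleukin-12 receptor, was called lower in CIA (-1.47 ± 0.36, limma adjusted p = 0.119), with levels of 1.97 ± 0.465 for Ctrl, 0.634 ± 0.0702 for CIA and 1.30 ± 0.592 for CIA+THz. Il15ra, which presents interleukin-15, was called higher in CIA (0.83 ± 0.31) and in CIA+THz (0.99 ± 0.29) against Ctrl. Of 5 other clade B serpins, Serpinb9b was called higher in CIA+THz against CIA (0.95 ± 0.30), at 3.15 ± 0.784 for Ctrl, 2.39 ± 0.805 for CIA and 4.58 ± 0.799 for CIA+THz.

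The members differed in how closely they followed their common profile, the mean z-score of the 9 tested members over the 9 libraries. Pearson's r to that profile, of which each gene is itself a part, was 0.96 for Serpinb9, 0.93 for Gzma, 0.88 for Gzmb and for Prf1, 0.79 for Fasl, 0.78 for Ccl5, 0.39 for Nkg7, 0.33 for Ifng and 0.21 for Gzmm. Among 9741 other genes with a mean of at least 1 rescaled FPKM, the 10 with the highest r were Pnn (0.970), Trim12c (0.967), Zdhhc15 (0.964), Klre1 (0.961), Luc7l3 (0.952), Chuk (0.949), Tmem30a (0.943), Mal (0.943), Ssb (0.942) and Ercc6 (0.940). Klre1 was the single NK cell marker among them, and Ncr1 was at place 68 with r = 0.887, Klrb1c at 83 and Klrd1 at 405. Markers of other cells lay among these places. The plasmacytoid dendritic cell marker Ccr9 was at 59 and the basophil and mast cell marker Cpa3 at 148. All points share the same 9 libraries and their rescaling, and r is given as a description.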

How the data were processed

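The authors sequenced paired-end reads of 150 bases from the blood RNA of 9 mice. The submitters' processing notes name bcl2fastq 2.0, HISAT2, StringTie, DESeq2 and the mm10 build, without their roles or parameters. The authors deposited FPKM for 20926 gene symbols, 1 column per library. Whole-read steps could not be recovered, so depth is unknown and no counting interval is given. Groups follow the sample labels. FPKM columns were divided by median-of-ratios factors, taken from 10312 genes with no value of 0. The test used log2(rescaled FPKM + 0.1) of the 12366 genes with a mean of at least 0.1, in limma 3.58.1 (lmFit, eBayes with a trend) under R 4.3.3, which was also tested on simulated data. Each pair of groups was fitted on its 6 libraries, and adjusted p are Benjamini-Hochberg over all genes tested. Fold changes are on the log2(value + 0.1) scale and understate changes of low genes. Coordinates are GENCODE on GRCm38, matched by symbol, and promoters are RefSeq on GRCm38.p6. All members were named, and from each partner list every called gene, apart from 1 list that is not reported here. The members and lists were chosen with earlier results of these data known. Alternatives tried were unscaled FPKM, pseudocount 1, 2 filters, no trend, a replicate block, all 9 libraries in 1 fit, leaving out each library, the adjusted p and an analysis of variance on linear values.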

Additional observations from a re-analysis of the deposited data

How the results depend on the processing

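With 3 libraries per group and no adjusted p under 0.05, the calls of members rest on unadjusted p and on few libraries. By the Benjamini-Hochberg adjusted p, limma called 0 members in each of the 3 pairs and across the 3 groups, where the unadjusted criterion called 4 for CIA against Ctrl, 1 for CIA+THz against CIA, 0 for CIA+THz against Ctrl and 4 across the groups. With a pseudocount of 1, 2 members were called in CIA against Ctrl (Gzma and Prf1), as were 816 of all 12366 genes tested. An analysis of variance on linear values called 2 members across the 3 groups (Prf1 and Serpinb9), and 2285 of all 14453 genes it tested. With FPKM as deposited, 3 members were called in CIA+THz against CIA, and 1192 genes in all in place of 561. In that setting the changes in CIA+THz against Ctrl reversed to 0.0643 for Ccl5, 0.0131 for Fasl, 0.12 for Gzmb, 0.0454 for Ifng, 0.18 for Nkg7 and 0.0919 for Prf1, and the Nkg7 change in CIA+THz against CIA to 0.14, because CIA+THz libraries have the largest rescaling factors. Leaving out each library in turn, 1 to 6 members were called for CIA against Ctrl, 0 to 1 for CIA+THz against CIA, 0 to 1 for CIA+THz against Ctrl (Gzma, without CIA+THz replicate 3) and 1 to 5 across the 3 groups. Of all genes, 966 to 1261, 484 to 745, 724 to 1487 and 2059 to 2789 were called in these fits, in the same order. Across the 3 groups Prf1 alone was called without Ctrl replicate 1, Ctrl replicate 3 or CIA replicate 2. The log2 fold changes that turned sign in such fits ranged, for Nkg7, from -0.32 to 0.19 in CIA against Ctrl, from -0.32 to 0.19 for irradiation against CIA and from -0.30 to 0.0647 in CIA+THz against Ctrl, for Ccl5 from -0.0901 to 0.46 and for Gzmm from -0.18 to 0.38 in CIA+THz against CIA, and for Ifng, where the added 0.1 sets the value against libraries at 0, from -0.72 to 1.11 in CIA+THz against Ctrl. Relative to the NK cell markers without Klre1 and Klrc2, an alternative chosen after the data were seen, the values that moved by more than 1 SD were, in CIA against Ctrl, 0.73 for Nkg7, 0.30 for Ccl5, 0.0893 for Serpinb9, 0.0190 for Gzmb, -0.28 for Prf1 and -0.13 for Fasl. In CIA+THz against CIA they were 0.0396 for Gzmb, -0.30 for Ccl5 and -0.16 for Serpinb9, and in CIA+THz against Ctrl -0.24 for Gzma and -0.0664 for Serpinb9. Of 244 values of members under the other settings, 224 kept their side of the criterion and, for fold changes, their direction. In the fits without a library 202 of 243 did, while 22 lost a call, 7 gained one and 12 reversed in direction. Values across the 3 groups have no direction, and values that were not called and stayed so count as kept. Fold changes are the same by construction under the 2 filters, no trend, the block and the fit on all 9 libraries. Among settings that kept every library, direction could therefore turn only with unscaled FPKM or pseudocount 1. Replicate numbers name different mice and did not pair the libraries, since the correlation of same-numbered deviations was between -0.0517 and 0.0309 and not every library was closest to its own number. With the replicate number as a block, 3 members were called for CIA against Ctrl (Gzma, Gzmb and Prf1), 1 for CIA+THz against CIA, 0 for CIA+THz against Ctrl and 4 across the 3 groups. The block fits called 1073, 506, 967 and 2399 of all genes in the same order. Groups of 3 were too small to screen single libraries as outliers.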
